A study of Mus musculus with 15 samples.

Results

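The genes described here encode the nucleolar machinery that makes ribosomes, including RNA polymerase I and its factors, in cultured mouse mammary epithelial cells. The list held 59 genes, chosen by name; 57 had a probe set annotated with that gene symbol alone, among 19938 genes on the array, and Noc2l and Npm3 are not analysed here. Where a gene had more than 1 probe set, the one with the highest mean over all 15 arrays stood for it. The cells came from female mice aged 8 weeks, were grown in culture with EGF, insulin and hydrocortisone, and were harvested while proliferating. There were 5 groups of 3 arrays: p53- Rb- Myc+, p53- Myc+, p53- Rb-, p53- and WT. By the labels, p53- and Rb- cells had lost that gene through Cre recombinase delivered by an adenovirus, Myc+ cells overexpressed MYC from a retrovirus, and all groups but WT carried the p53 deletion. Groups are called by these labels throughout; Trp53 itself is not analysed here. No label mentions control viruses for WT cells or for cells without MYC, so virus and gene cannot be told apart. Nor is it stated that replicates were separate cultures or animals, and p-values therefore measure only a spread among arrays that may be technical.

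Ribosomes are assembled in the nucleolus, where RNA polymerase I transcribes the precursor of most ribosomal RNA with the help of the factors Ubtf, Rrn3 and the selectivity complex to which Taf1d belongs. Small nucleolar ribonucleoproteins then modify the precursor, and large assemblies fold and cleave it into the small and large subunits. MYC is known to activate many genes of this machinery, while RB and p53 are known as restraints on RNA polymerase I itself.

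Several facts bear on all results. Array medians ran from 41.28 to 54.9 intensity units, and the correlation of log2 values between replicates was 0.963 to 0.989. The Rb1 probe set averaged 18.74 in p53- Rb- Myc+, 36.43 in p53- Myc+, 57.39 in p53- Rb-, 161.5 in p53- and 92.79 in WT arrays. It was lower with the Rb- label in both pairs (adjusted p = 0.0453 with and 1.64e-05 without the Myc+ label) and also in p53- Myc+ against p53- arrays, where its mean lay below that of the p53- Rb- arrays. The mouse Myc probe set averaged 96.29 in p53- Rb- Myc+ and 128.2 in p53- Myc+ arrays, against 855.7 in p53- Rb-, 929.8 in p53- and 887.8 in WT arrays. It thus went against the Myc+ label, at -2.95 ± 0.17 in p53- Rb- Myc+ against p53- Rb- and -2.73 ± 0.17 in p53- Myc+ against p53- arrays (adjusted p = 2.31e-12 and 9.48e-12); whether this probe set reads the transgene is not stated in the labels. The summed intensity of 13 epithelial markers was 691.9 to 773 in p53- Rb- Myc+ and 206 to 269.8 in p53- Myc+ arrays, against 20710 to 22750 in p53- Rb-, 20010 to 22820 in p53- and 22800 to 23720 in WT arrays. Krt18 averaged 4.78, Krt5 5.513, Krt14 9.949, Epcam 10.26 and Cdh1 19.96 in p53- Myc+ arrays. None of these means exceeded 23.85 in p53- Rb- Myc+ arrays, so these markers of the labelled cell type were near 0 with the Myc+ label. Krt19, also on the list, averaged 489.3 in p53- Rb- Myc+ and 75.58 in p53- Myc+ arrays (2.47 ± 0.15 higher, adjusted p = 9.79e-11). In such bulk RNA, fewer cells of a type and less RNA per cell cannot be told apart.

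The nucleolar genes stood highest in the Myc+ arrays. Their mean log2 level was 9.26 ± 0.02 in p53- Rb- Myc+ and 9.35 ± 0.01 in p53- Myc+ arrays, against 8.41 ± 0.07 in p53- Rb-, 8.57 ± 0.06 in p53- and 8.08 ± 0.08 in WT arrays (SD over 3 arrays). No array with the Myc+ label overlapped an array without it, and the p53- and p53- Rb- arrays lay above all WT arrays. Levels are log2 of intensity plus 16, and they are compared only within a gene or a fixed set of genes. The heatmap of single arrays and the plot of role means show the same order in most roles. In the RNA polymerase I role the p53- Rb- arrays, at 8.68 ± 0.01, stood above the p53- arrays, at 8.56 ± 0.07, whereas in the small-subunit processome they stood below, at 7.94 ± 0.08 against 8.28 ± 0.06. These 2 pairs of role means are given as values without a test.

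**Figure D1:**
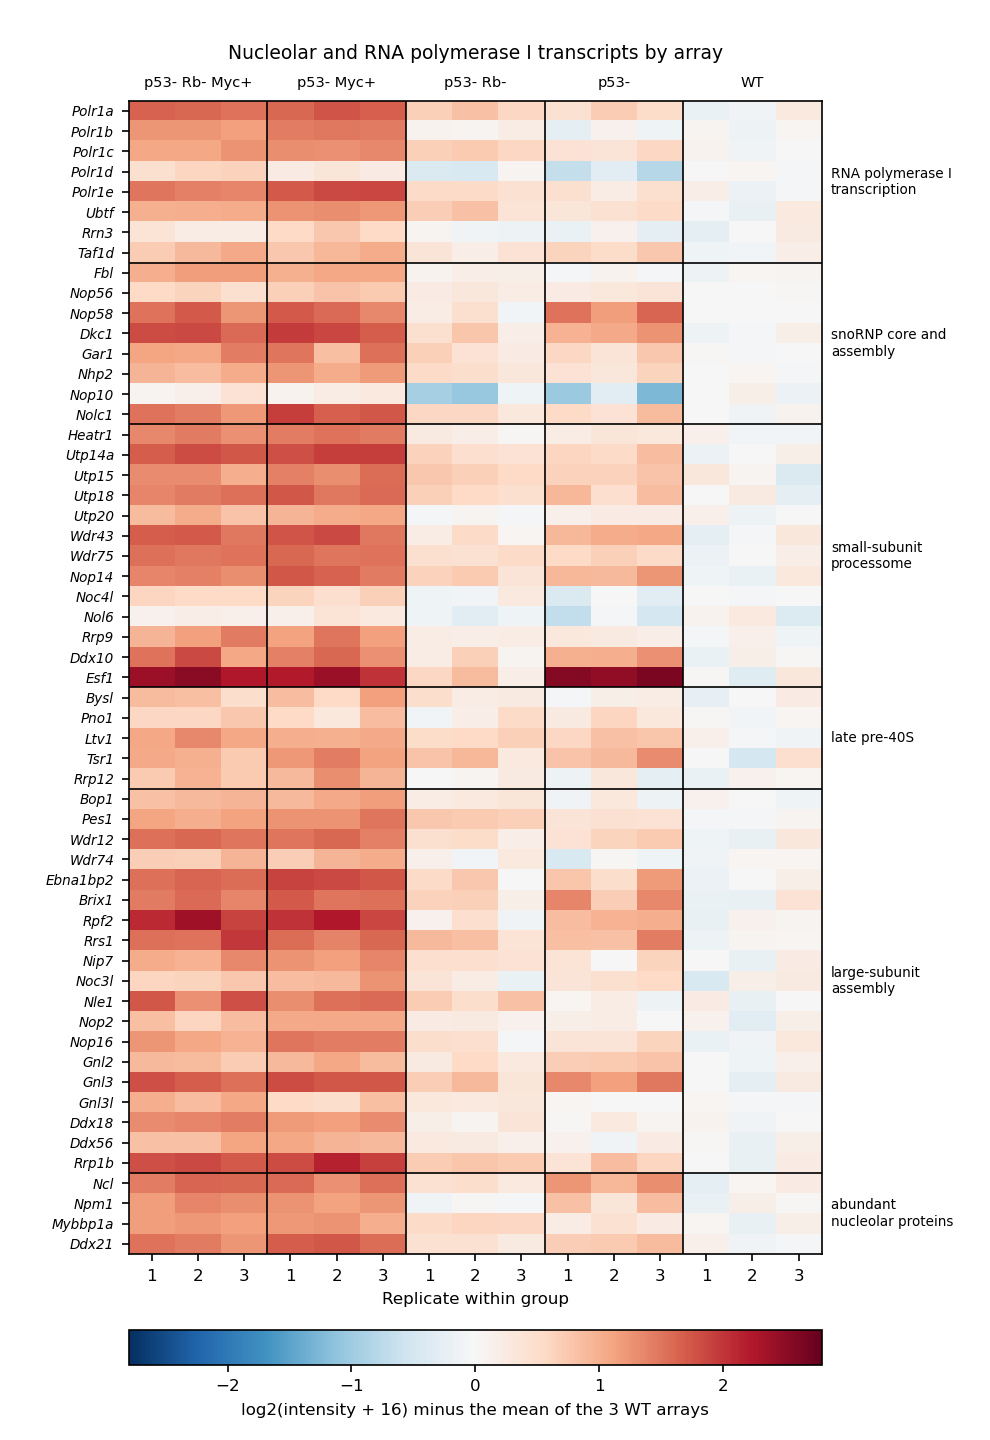
Each row is 1 of 57 genes, grouped by role, and each column 1 of 15 arrays; the colour is log2(intensity + 16) minus the mean of the 3 WT arrays of that gene. The 6 Myc+ columns are red in nearly all rows, the Esf1 row is also dark red in the 3 p53- columns, and Nop10 and Polr1d are blue in several p53- Rb- and p53- columns.

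**Figure D2:**
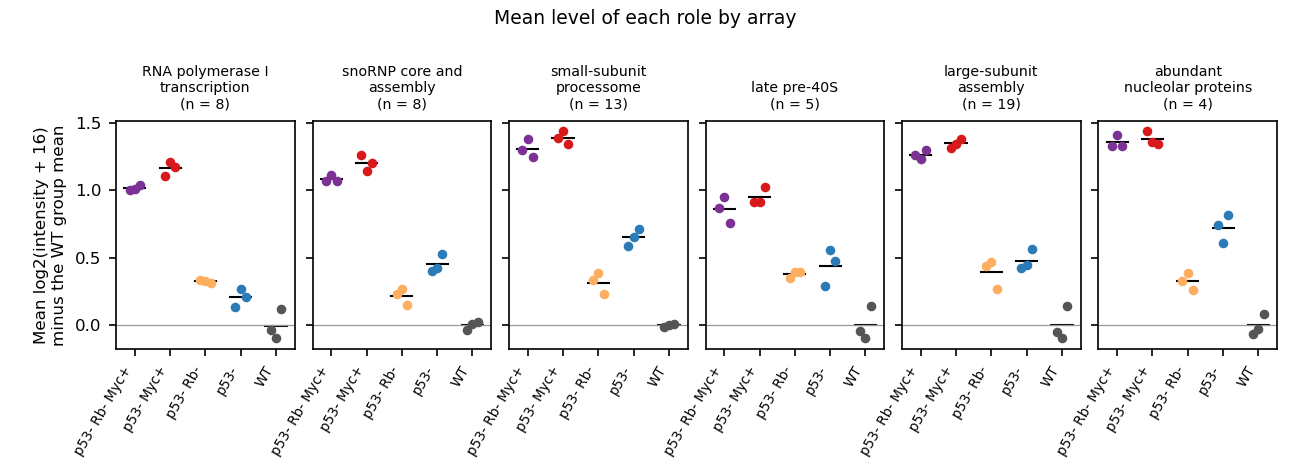
The mean level of the genes of each role in every array, as log2(intensity + 16) minus the WT group mean; points are arrays and lines are group means (n = 3). In all 6 panels the 6 Myc+ arrays lie above the 9 other arrays.

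The MYC retrovirus was compared in cells lacking p53. A gene passed when its adjusted p was under 0.05 by limma with Benjamini-Hochberg adjustment over all 19938 genes. In p53- Myc+ against p53- arrays, 45 of the 57 genes rose and 0 fell, where 13.1% of all genes rose and 20.2% fell (33.3% in either direction). The median log2 fold change of the nucleolar genes was 0.84, against -0.09 for all genes. The 3 arrays of p53- Myc+ lay above the 3 p53- arrays for 51 of the 57 genes, as they did for 16.8% of all genes, and below them for 1, against 25.8%. Of all genes that passed, 39.2% rose; this share was 59.2% with each array centred on its median, which moved the median of all genes to 0.11, and 56.2% with quantile normalization, while 53 and 48 of the nucleolar genes rose and 0 fell. The 12 genes that did not pass were Esf1, Nop58, Pno1, Gnl2, Tsr1, Taf1d, Ltv1, Ncl, Ddx10, Gnl3, Brix1 and Rrs1, with log2 fold changes of -0.35 to 0.50. Epithelial markers moved with this comparison, 13 of 13 lower, and 10 of 17 proliferation genes were higher. Of 15 mesenchymal and fibroblast markers 10 were higher and 3 lower, with Pdgfra at 2.49 ± 0.19 and Thy1 at -3.86 ± 0.20 (adjusted p = 4.29e-10 and 2.94e-13), and 4 of 9 leukocyte and 4 of 7 endothelial markers were lower. The part of these markers in the result was not tested.

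The same retrovirus was compared in cells lacking both p53 and Rb. In p53- Rb- Myc+ against p53- Rb- arrays, 49 of the 57 genes rose and 0 fell, where 17.6% of all genes rose and 18.7% fell (36.3% in either direction). The median log2 fold change was 0.89, against 0.12 for all genes, and all 57 values were positive. For 55 genes every p53- Rb- Myc+ array lay above every p53- Rb- array, as for 28.6% of all genes. The 8 that did not pass were Tsr1, Nop56, Rrn3, Nol6, Pes1, Ubtf, Bysl and Pno1, at 0.27 to 0.43. All 13 epithelial markers were lower and 8 of 17 proliferation genes higher here too. Of 15 mesenchymal and fibroblast markers 4 were higher and 8 lower, and 3 of 9 leukocyte and 3 of 7 endothelial markers were lower with 1 of each higher; their part was not tested.

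Loss of p53 was compared with WT cells. In p53- against WT arrays, 30 of the 57 genes rose and 2 fell, where 19.3% of all genes rose and 9.72% fell (29% in either direction). The median log2 fold change was 0.45, against 0.12 for all genes. The p53- arrays lay above the WT arrays for 40 genes, against 26.4% of all genes, and below them for 2, against 13.8%. Of all genes that passed, 66.5% rose, a share of 52.5% with centred arrays and 51.6% with quantile normalization, under which 26 and 30 nucleolar genes rose and 3 and 2 fell; centring moved the median of all genes to 0.03. The summed intensity of 17 proliferation genes was 9968 to 10720 in p53- arrays against 6924 to 6984 in WT arrays, and that of 9 leukocyte markers 631.7 to 768.2 against 2069 to 2483. The part of either in the result was not tested.

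**Figure D3:**
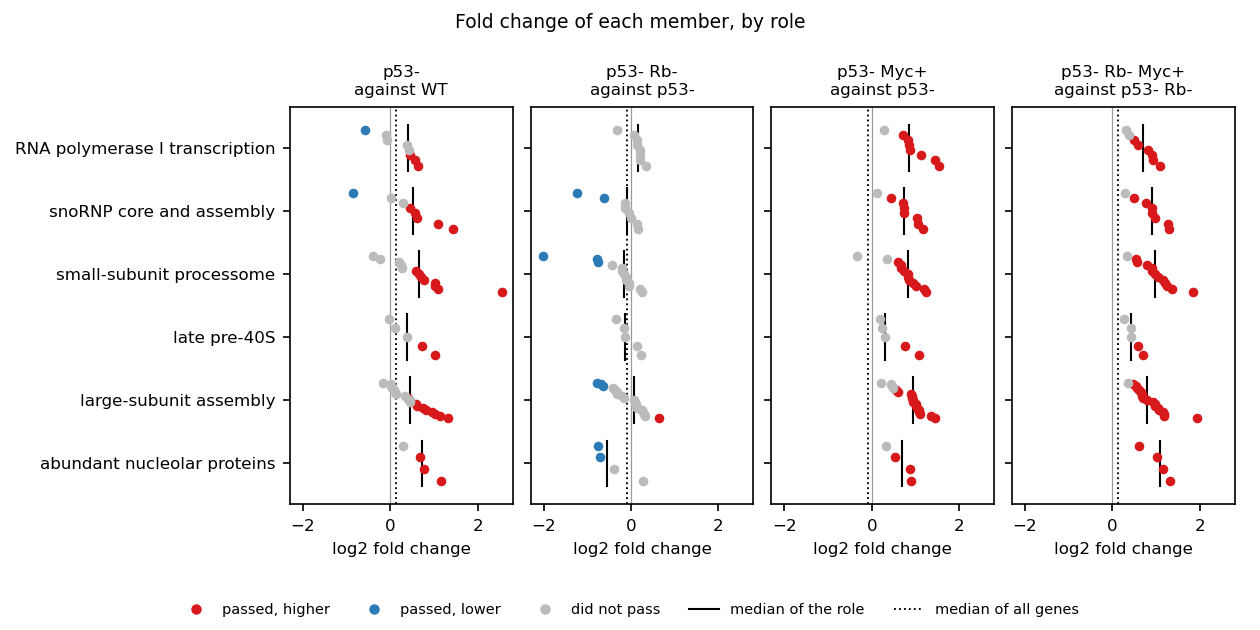
The log2 fold change of each gene by role in 4 comparisons; red points passed and were higher, blue points passed and were lower, grey points did not pass, black bars are role medians and dotted lines the median of all genes. Most points lie right of the dotted line in both Myc+ comparisons, while in p53- Rb- against p53- the points of the RNA polymerase I role lie around 0 and all 8 are grey.

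Deletion of Rb in cells lacking p53 gave calls at a share close to that of all genes (19.3% against 19.8%), most of them downward. In p53- Rb- against p53- arrays, 1 of the 57 genes rose and 10 fell, where 9.36% of all genes rose and 10.4% fell (19.8% in either direction), and the median was -0.11 against -0.08 for all genes. The 10 that fell were Esf1, Nop58, Rpf2, Ddx10, Ncl, Wdr43, Npm1, Gnl3, Brix1 and Dkc1, and Nle1 rose. Leaving out the third p53- array, or the third p53- Rb- array, left 6 lower and 0 higher, where 10.7% and 10.5% of all genes passed. The call of Dkc1 was lost in either case (adjusted p = 0.0811 and 0.0986), as was that of Brix1 (0.143 and 0.172), which was also lost without the first p53- array (0.137). Of these calls, those of Esf1, Nop58, Ncl and Npm1 were kept under all 17 alternatives. Of 15 mesenchymal and fibroblast markers 9 were higher, with a summed intensity of 14100 to 17090 in p53- Rb- against 10820 to 11310 in p53- arrays. Of 17 proliferation genes 4 were higher and 3 lower, with Mcm5 at 0.59 ± 0.16 and Mki67 at -1.34 ± 0.23 (adjusted p = 0.0131 and 0.000304). The part of either list in the result was not tested.

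Set against WT, the cells without p53 and Rb had 19 of the 57 genes higher and 1 lower, where 10.8% of all genes rose and 3.75% fell (14.6% in either direction). The median was 0.36, against 0.04 for all genes, and p53- Rb- arrays lay above WT arrays for 29 genes, against 19.7% of all genes. The largest calls were Rrp1b at 0.74 ± 0.17, Pes1 at 0.72 ± 0.14, Rrs1 at 0.71 ± 0.19 and Polr1a at 0.69 ± 0.16 (log2 fold change ± SE, adjusted p = 0.00453, 0.00172, 0.0157 and 0.00514). This count leaned on single arrays: 11 genes passed without WT replicate 1, 8 without WT replicate 2, 6 without p53- Rb- replicate 1 and 7 without p53- Rb- replicate 2. The share of all genes fell too, from 14.6% to 11.4%, 8.53%, 8.71% and 8.51% in the same order. The call of Rrs1 was lost without WT replicate 1 (adjusted p = 0.0606), p53- Rb- replicate 1 (0.0857) or p53- Rb- replicate 2 (0.0728). Of all genes that passed, 74.2% rose, and 58.8% with quantile normalization, under which 11 nucleolar genes rose and 1 fell. In this comparison 12 of 15 mesenchymal and fibroblast markers were higher, with a summed intensity of 14100 to 17090 in p53- Rb- against 9082 to 9847 in WT arrays, 11 of 17 proliferation genes were higher and 3 of 9 leukocyte markers were lower; their part in the result was not tested. The 2 comparisons with WT share the WT arrays. The p53- arrays are the tested group in p53- against WT and the reference in p53- Rb- against p53- and p53- Myc+ against p53-. They also enter the difference of the Rb comparisons given below. Opposite changes of a gene in these comparisons rest in part on the same arrays. The values are therefore given side by side and not as separate evidence.

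Most transcripts of the RNA polymerase I role rose with the Myc+ label. The role holds 8 listed genes, for subunits and initiation factors, and not every subunit of the enzyme. Of these 8 genes 7 rose in p53- Myc+ against p53- arrays, with a median of 0.86. In p53- Rb- Myc+ against p53- Rb- arrays 6 rose, with a median of 0.70. In p53- against WT 3 rose and 1 fell, and in p53- Rb- against p53- 0 of the 8 passed. Polr1a, the largest catalytic subunit, had intensities of 697.2, 678.8 and 642.3 in p53- Rb- Myc+, 682.9, 758 and 713.8 in p53- Myc+, 349.3, 385.7 and 325.7 in p53- Rb-, 293.1, 355.8 and 312.8 in p53-, and 185.9, 197.7 and 260.9 in WT arrays. Its Myc+ arrays and the arrays of p53- and p53- Rb- cells formed separate ranges, and all of them stood above the WT arrays. Polr1a rose by 1.13 ± 0.16 in p53- Myc+ against p53- arrays (log2 fold change ± SE, adjusted p = 4.52e-06) and by 0.55 ± 0.16 in p53- against WT arrays (adjusted p = 0.0111; 0.0573 without WT replicate 1).

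Polr1b, the second-largest subunit, had the steepest rise of the 57 genes with the Myc+ label in cells lacking p53 alone. It had 302.3, 302.2 and 286.2 in p53- Rb- Myc+, 351.1, 361.7 and 354.1 in p53- Myc+, 128.3, 126 and 139.9 in p53- Rb-, 96.68, 132.1 and 109.5 in p53-, and 127.9, 107.3 and 124.1 in WT arrays. The 3 groups without the Myc+ label overlapped one another, and both Myc+ groups lay well above them. The change was 1.54 ± 0.15 in p53- Myc+ against p53- (adjusted p = 2e-08), 1.09 ± 0.15 in p53- Rb- Myc+ against p53- Rb- (adjusted p = 3.88e-06) and -0.08 ± 0.15 in p53- against WT arrays (adjusted p = 0.714). Polr1e, a subunit of the initiation-competent enzyme, had 222.9, 211 and 204.3 in p53- Rb- Myc+, 265.9, 292.2 and 295.3 in p53- Myc+, 107.5, 107.6 and 99.1 in p53- Rb-, 100.8, 82.91 and 100.5 in p53-, and 81.47, 59.68 and 67.82 in WT arrays. Its change with the Myc+ label was 1.44 ± 0.15 (adjusted p = 6.12e-08) in cells lacking p53 and 0.92 ± 0.15 (adjusted p = 3.57e-05) in cells lacking both. The p53- Rb- Myc+ arrays lay below the p53- Myc+ arrays for Polr1b and Polr1e, but neither difference passed (-0.25 ± 0.15 and -0.39 ± 0.15, adjusted p = 0.484 and 0.178).

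Polr1c and Polr1d encode subunits that RNA polymerase I shares with RNA polymerase III, and they differed after loss of p53. Polr1c had 613.8, 606.8 and 691.7 in p53- Rb- Myc+, 709.1, 705.9 and 737.2 in p53- Myc+, 450.7, 472.4 and 426.7 in p53- Rb-, 373.6, 363 and 425.7 in p53-, and 300.1, 260.2 and 278.4 in WT arrays. Polr1d had 1577, 1765 and 1815 in p53- Rb- Myc+, 1344, 1454 and 1349 in p53- Myc+, 870.1, 852.4 and 1210 in p53- Rb-, 714.4, 934.6 and 656.2 in p53-, and 1155, 1189 and 1105 in WT arrays. In p53- against WT arrays Polr1c rose by 0.45 ± 0.15 (adjusted p = 0.0241; 0.0764 without WT replicate 2, 0.119 without p53- replicate 3, 0.087 with centred arrays and 0.0711 with only the compared arrays in the fit), and Polr1d fell, at -0.59 ± 0.17 (adjusted p = 0.0122; 0.0824 without p53- replicate 3). Polr1d has a second probe set, and with the mean of both its change was -0.46 (adjusted p = 0.0673). For Polr1d, p53- replicate 2 and p53- Rb- replicate 3 stood above the other 2 arrays of their groups. Both genes rose with the Myc+ label in cells lacking p53, Polr1c by 0.87 ± 0.15 (adjusted p = 5.01e-05) and Polr1d by 0.85 ± 0.17 (adjusted p = 0.00036). The second probe set of Polr1d showed 0.46 there.

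The initiation factors were Ubtf, Rrn3 and Taf1d. Ubtf, which opens ribosomal DNA chromatin, had 586.8, 596.3 and 607.3 in p53- Rb- Myc+, 704.8, 722.9 and 689.8 in p53- Myc+, 472.9, 519.2 and 377.4 in p53- Rb-, 364.1, 390.3 and 419.6 in p53-, and 273, 243.8 and 350.8 in WT arrays. Rrn3, which recruits the polymerase to the promoter, had 569.3, 503.7 and 501.3 in p53- Rb- Myc+, 638.9, 737.9 and 638.3 in p53- Myc+, 458.8, 404.5 and 389.9 in p53- Rb-, 374.7, 469.6 and 362.4 in p53-, and 353.2, 436.5 and 520.7 in WT arrays. For both genes the p53- Myc+ arrays were the highest of the 15, and the WT arrays spread widely. In p53- Myc+ against p53- arrays Ubtf rose by 0.83 ± 0.16 (adjusted p = 0.000311) and Rrn3 by 0.72 ± 0.17 (adjusted p = 0.00151), while with Rb also deleted the changes were 0.39 ± 0.16 and 0.32 ± 0.17 (adjusted p = 0.068 and 0.143). Whether these changes differ between the backgrounds is the difference of the Rb comparisons, which did not pass for either (-0.44 ± 0.23 and -0.40 ± 0.24, adjusted p = 0.216 and 0.268). Taf1d had 1689, 1932 and 2166 in p53- Rb- Myc+, 1750, 1956 and 2121 in p53- Myc+, 1322, 1173 and 1353 in p53- Rb-, 1592, 1476 and 1729 in p53-, and 947.9, 963 and 1176 in WT arrays, with p53- above WT by 0.63 ± 0.16 (adjusted p = 0.00488). Taf1d has 9 probe sets, 4 of them with identical values, and across them the p53- against WT change ran from -0.37 to 1.47, so its direction depends on the probe set. In p53- Myc+ against p53- arrays they ran from 0.02 to 0.95, where the one used here showed 0.28 and did not pass.

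Of the 8 genes of the small nucleolar ribonucleoproteins, 7 rose with the Myc+ label in each background, and 5 rose and 1 fell in p53- against WT arrays. Leaving out p53- replicate 3 lost 4 of the 6 calls in p53- against WT, those of Gar1 (adjusted p = 0.136), Nhp2 (0.145), Nolc1 (0.0656) and Nop10 (0.0721), and kept those of Nop58 and Dkc1. Fbl, the methyltransferase of the box C/D particles, had 2187, 2432 and 2442 in p53- Rb- Myc+, 2153, 2299 and 2298 in p53- Myc+, 1151, 1220 and 1200 in p53- Rb-, 1043, 1153 and 1053 in p53-, and 968, 1123 and 1141 in WT arrays. Nop58, a scaffold of the same particles, had 897.2, 1032 and 735.6 in p53- Rb- Myc+, 1038, 949.7 and 795 in p53- Myc+, 355.4, 423.8 and 288.9 in p53- Rb-, 903.4, 703.6 and 968.1 in p53-, and 304.7, 300.6 and 306.5 in WT arrays. For Fbl all Myc+ arrays stood above all others, whereas for Nop58 the p53- arrays overlapped the Myc+ arrays and the p53- Rb- arrays overlapped the WT arrays. Fbl changed by 1.04 ± 0.14 in p53- Myc+ against p53- arrays (adjusted p = 3.95e-06) and by 0.01 ± 0.14 in p53- against WT arrays (adjusted p = 0.968). A dimmer probe set of Fbl showed 0.34 in p53- Rb- Myc+ against p53- Rb- and 0.63 in p53- Myc+ against p53- arrays, where the one used here showed 0.97 and 1.04, and whether either reads Fbl alone was not tested. Nop58 showed 0.11 ± 0.18 in p53- Myc+ against p53- (adjusted p = 0.68) and 1.28 ± 0.18 in p53- Rb- Myc+ against p53- Rb- arrays (adjusted p = 4.75e-06). In p53- against WT arrays Nop58 rose by 1.44 ± 0.18 (adjusted p = 7.1e-06), and in p53- Rb- against p53- arrays it fell, at -1.24 ± 0.18 (adjusted p = 5.75e-05).

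Nop10, the smallest core protein of the box H/ACA particles, was 1 of the 2 genes that fell in p53- against WT arrays. It had 1462, 1525 and 1818 in p53- Rb- Myc+, 1465, 1596 and 1676 in p53- Myc+, 709.9, 653.3 and 1265 in p53- Rb-, 663.6, 1124 and 562.3 in p53-, and 1366, 1542 and 1235 in WT arrays. In p53- and p53- Rb- cells 1 array of 3 stood far above the other 2, and these were the same arrays as for Polr1d. The change was -0.86 ± 0.23 in p53- against WT (adjusted p = 0.00818; 0.0721 without p53- replicate 3) and 1.06 ± 0.23 in p53- Myc+ against p53- arrays (adjusted p = 0.000993). Its partner Dkc1, the pseudouridine synthase, was 2.14-fold higher in p53- than in WT arrays (adjusted p = 8.11e-05).

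**Figure D4:**
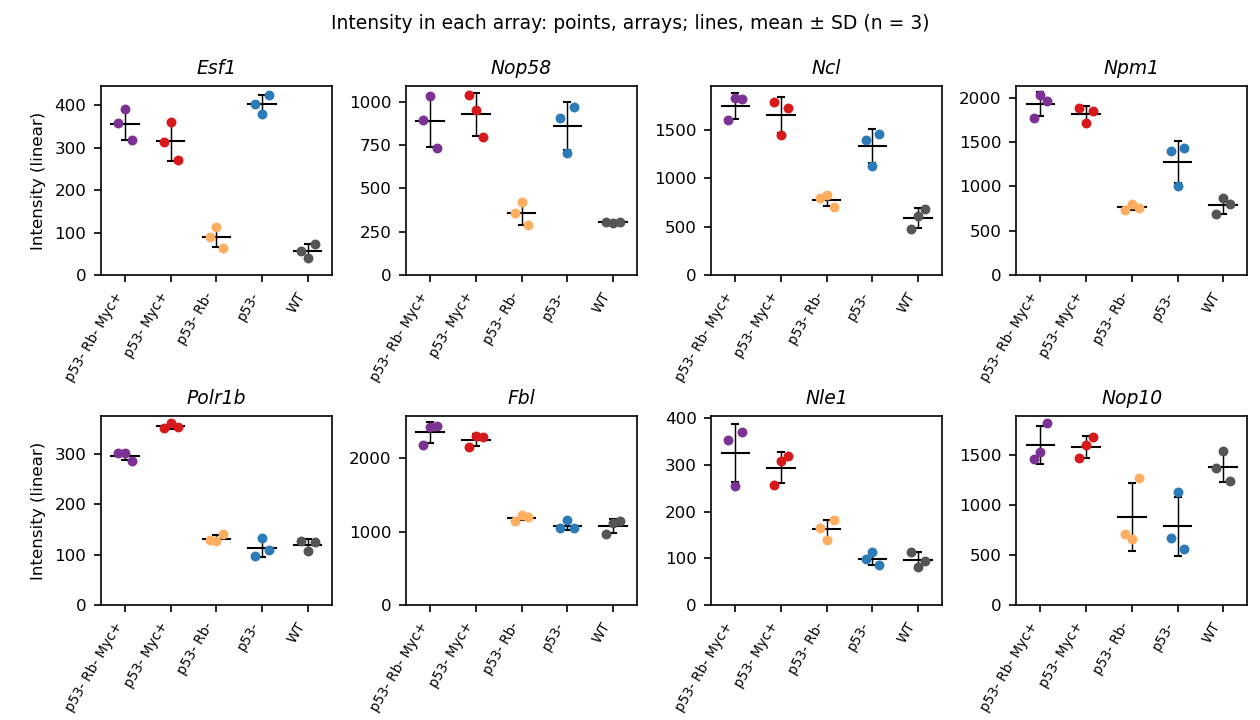
Linear intensity of 8 genes in each array, with the mean and SD of each group (n = 3) and axes that start at 0. Esf1, Nop58 and Ncl are high in both Myc+ groups and in p53- and low in p53- Rb- and WT, Polr1b and Fbl are high in the Myc+ groups, and Nop10 is spread within p53- Rb- and p53-.

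The small-subunit processome, the assembly that folds and cleaves the first part of the precursor, held the gene with the largest changes. Of its 13 genes 11 rose in p53- Myc+ against p53-, 12 in p53- Rb- Myc+ against p53- Rb-, and 8 in p53- against WT arrays, with 0 lower in each; 3 fell in p53- Rb- against p53- arrays. Esf1, a pre-rRNA processing factor known best from its yeast counterpart, had 357.2, 390.1 and 318.2 in p53- Rb- Myc+, 313.6, 360.5 and 270.2 in p53- Myc+, 89.71, 114.1 and 64.56 in p53- Rb-, 402.9, 379.3 and 425 in p53-, and 56.31, 40.05 and 71.9 in WT arrays. The p53- arrays and both Myc+ groups all lay above the p53- Rb- and WT arrays, which overlapped each other. Esf1 rose by 2.56 ± 0.19 in p53- against WT (adjusted p = 6.31e-09) and fell in p53- Rb- against p53- arrays, at -2.01 ± 0.19 (adjusted p = 4.83e-07). Both changes rest in part on the same p53- arrays. With the Myc+ label Esf1 rose by 1.84 ± 0.19 in cells lacking p53 and Rb (adjusted p = 5.97e-08), while in cells lacking p53 the value was -0.35 ± 0.19 (adjusted p = 0.182).

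Wdr43 and the RNA helicase Ddx10, also of the processome, shared only part of this order. Wdr43 had 1258, 1277 and 1075 in p53- Rb- Myc+, 1324, 1401 and 1075 in p53- Myc+, 441.7, 557.8 and 393.4 in p53- Rb-, 733.3, 800 and 816 in p53-, and 311, 367.7 and 473.6 in WT arrays. Ddx10 had 372.2, 468.8 and 272.3 in p53- Rb- Myc+, 344.8, 395.7 and 314.7 in p53- Myc+, 141.1, 197.6 and 126.4 in p53- Rb-, 253.1, 256.1 and 311.1 in p53-, and 102.3, 135.6 and 122.4 in WT arrays. For both, p53- arrays lay between the ranges of p53- Rb- and p53- Myc+ arrays. Wdr43 fell in p53- Rb- against p53- arrays, at -0.75 ± 0.18 (adjusted p = 0.00498), and Ddx10 at -0.78 ± 0.20 (adjusted p = 0.00741; 0.0511 without p53- replicate 3 and 0.0557 without p53- Rb- replicate 3). Heatr1 and Utp14a, in contrast, showed 1.19 ± 0.15 and 1.23 ± 0.15 in p53- Myc+ against p53- arrays (adjusted p = 6.88e-07 and 8.81e-07) and -0.12 ± 0.15 and -0.15 ± 0.15 in p53- Rb- against p53- arrays (adjusted p = 0.605 and 0.506). The 5 genes of late small-subunit assembly moved least: 2 rose in each Myc+ comparison. Among them Bysl had 237, 230.6 and 176.7 in p53- Rb- Myc+, 233.6, 187.6 and 287.8 in p53- Myc+, 177.9, 142.9 and 148.3 in p53- Rb-, 115.9, 137.9 and 142.8 in p53-, and 101.8, 121.4 and 144.2 in WT arrays.

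Large-subunit assembly, with 19 genes, had 15 higher in p53- Myc+ against p53-, 18 in p53- Rb- Myc+ against p53- Rb- and 9 in p53- against WT arrays, with 0 lower in each. Rpf2 and Rrs1, which in yeast act together to bring the smallest ribosomal RNA into the pre-ribosome, differed in their ranges. Rpf2 had 996.8, 1201 and 860.2 in p53- Rb- Myc+, 942, 1101 and 843.5 in p53- Myc+, 242.8, 313.6 and 206.4 in p53- Rb-, 412.4, 448.6 and 464.4 in p53-, and 189.6, 241.2 and 234.4 in WT arrays. Rrs1 had 382.1, 376.4 and 517 in p53- Rb- Myc+, 389.4, 342.2 and 399 in p53- Myc+, 237.9, 226.7 and 161.4 in p53- Rb-, 226.7, 223.7 and 353.7 in p53-, and 108.2, 127.3 and 125.6 in WT arrays. Rpf2 separated p53- from p53- Rb- arrays and from Myc+ arrays, whereas for Rrs1 these groups overlapped, p53- replicate 3 reaching into the p53- Myc+ range. In p53- Rb- Myc+ against p53- Rb- arrays Rpf2 rose by 1.94 ± 0.18 (adjusted p = 8e-09), the largest change of the 57 genes in that comparison, and Rrs1 by 0.98 ± 0.19 (adjusted p = 0.000294).

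Nle1, a factor of large-subunit maturation, was the only 1 of the 57 genes that rose in p53- Rb- against p53- arrays. It had 352.7, 254.9 and 371.1 in p53- Rb- Myc+, 256.3, 308.1 and 318.2 in p53- Myc+, 164.6, 139.3 and 181.3 in p53- Rb-, 99.09, 112.2 and 84.67 in p53-, and 113.9, 80.05 and 93.51 in WT arrays. Its p53- and WT arrays overlapped, the p53- Rb- arrays stood above both, and the Myc+ arrays stood above those. The change in p53- Rb- against p53- arrays was 0.63 ± 0.18 (adjusted p = 0.015). The call was lost on leaving out the third p53- array (adjusted p = 0.0913), or p53- Rb- replicate 1 (0.051) or 3 (0.081). With the Myc+ label Nle1 rose by 1.44 ± 0.18 in cells lacking p53 (adjusted p = 8.27e-07).

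Gnl3, known as nucleostemin, had 1382, 1274 and 1139 in p53- Rb- Myc+, 1392, 1312 and 1312 in p53- Myc+, 628.9, 736.5 and 486.2 in p53- Rb-, 1005, 864.7 and 1092 in p53-, and 384.6, 320.3 and 455.9 in WT arrays. Rrp1b had 574.2, 588.8 and 537.1 in p53- Rb- Myc+, 584.3, 737.1 and 616.6 in p53- Myc+, 258.8, 270.5 and 263.8 in p53- Rb-, 203.2, 289.3 and 239.2 in p53-, and 150.3, 128.5 and 181.3 in WT arrays. Gnl3 spread the arrays into 4 levels, with both Myc+ groups at the top and WT lowest, while for Rrp1b the p53- Rb- and p53- arrays overlapped. Gnl3 rose by 1.32 ± 0.17 in p53- against WT arrays (adjusted p = 1.37e-05) and fell in p53- Rb- against p53- arrays, at -0.68 ± 0.17 (adjusted p = 0.00889; 0.0572 without p53- replicate 3 and 0.0747 without p53- Rb- replicate 3). Rrp1b rose by 1.36 ± 0.17 in p53- Myc+ against p53- arrays (adjusted p = 6.76e-07).

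Pes1, of the complex with Bop1 and Wdr12 that processes the large-subunit precursor, rose with the Myc+ label by 0.94 ± 0.14 in cells lacking p53 (adjusted p = 1.48e-05). Its intensities were 436.5, 410.3 and 444.9 in p53- Rb- Myc+, 491.6, 490.3 and 581.1 in p53- Myc+, 338.2, 335.4 and 322.2 in p53- Rb-, 256.8, 269.3 and 265.6 in p53-, and 190.5, 190.5 and 205.6 in WT arrays. None of the 5 groups overlapped another. Noc3l had 172.6, 175.6 and 193.9 in p53- Rb- Myc+, 211.2, 215.7 and 282.4 in p53- Myc+, 143.1, 128.5 and 92.86 in p53- Rb-, 143.3, 152.7 and 167.5 in p53-, and 77.23, 124 and 131.4 in WT arrays. Its rise with the Myc+ label in cells lacking p53, 0.56 ± 0.19 (adjusted p = 0.0255), was lost without p53- replicate 1 (adjusted p = 0.0866), p53- replicate 2 (0.0563) or p53- Myc+ replicate 3 (0.128).

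Of the 4 abundant nucleolar proteins, 3 rose in p53- against WT, 3 in p53- Myc+ against p53- and all 4 in p53- Rb- Myc+ against p53- Rb- arrays, and 2 fell in p53- Rb- against p53- arrays. Ncl, or nucleolin, which binds nascent ribosomal RNA, had 1599, 1831 and 1821 in p53- Rb- Myc+, 1794, 1449 and 1730 in p53- Myc+, 794.1, 829.8 and 706.8 in p53- Rb-, 1399, 1131 and 1461 in p53-, and 478.5, 606.8 and 682.5 in WT arrays. Npm1, or nucleophosmin, a nucleolar chaperone, had 1777, 2040 and 1966 in p53- Rb- Myc+, 1891, 1718 and 1854 in p53- Myc+, 735, 801.4 and 753.2 in p53- Rb-, 1400, 1001 and 1430 in p53-, and 687.8, 874 and 796.6 in WT arrays. The p53- arrays stood above the p53- Rb- arrays for both genes, and Npm1 in p53- Rb- arrays lay within the WT range. Ncl rose by 1.16 ± 0.17 in p53- against WT arrays (adjusted p = 3.63e-05) and fell in p53- Rb- against p53- arrays, at -0.76 ± 0.17 (adjusted p = 0.00279). Npm1 showed 0.68 ± 0.16 and -0.71 ± 0.16 in these comparisons (adjusted p = 0.0037 and 0.00367), and its rise with the Myc+ label in cells lacking p53, 0.52 ± 0.16 (adjusted p = 0.0154), was lost without p53- replicate 2 (0.36, adjusted p = 0.1).

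Deletion of Rb in cells labelled Myc+ was the comparison with the fewest calls. In p53- Rb- Myc+ against p53- Myc+ arrays 0 of the 57 genes passed by limma, where 3.29% of all genes rose and 1.4% fell (4.69% in either direction); 4 nucleolar genes and 2968 of all genes had an unadjusted p under 0.05. The log2 fold changes ran from -0.40 to 0.36 with a median of -0.11, against 0.05 for all genes. The p53- Rb- Myc+ arrays lay below the p53- Myc+ arrays for 16 genes and above them for 3, against 7.71% and 12.8% of all genes. Of all genes that passed, 70.2% rose, and 55.8% with centred arrays and 59.4% with quantile normalization, with 0 nucleolar genes called in each. Of 13 epithelial markers 2 were higher and 0 lower, and of 15 mesenchymal and fibroblast markers 1 was higher and 5 lower. The part of these markers was not tested.

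Whether the Rb comparison differs with and without the Myc+ label was tested as the difference of both, p53- Rb- Myc+ against p53- Myc+ minus p53- Rb- against p53-. It passed upward for 5 of the 57 genes and downward for 0, where it passed upward for 8.78% and downward for 4.86% of all genes (13.6% in either direction). The share of nucleolar genes was thus close to that of all genes. The 5 were Esf1 at 2.18 ± 0.27 (adjusted p = 9.95e-06), Nop58 at 1.17 ± 0.25 (adjusted p = 0.0035), Rpf2 at 0.85 ± 0.25 (adjusted p = 0.0264), Ncl at 0.84 ± 0.24 (adjusted p = 0.021) and Npm1 at 0.79 ± 0.23 (adjusted p = 0.0244). For Esf1 the parts were 0.17 ± 0.19 with the Myc+ label and -2.01 ± 0.19 without it, and for Nop58 -0.07 ± 0.18 and -1.24 ± 0.18. Esf1 and Nop58 passed under all 23 alternatives. Of all genes that passed, 64.4% were upward, but 45.1% with centred arrays, where the median of all genes was -0.003 in place of 0.13 and 2 nucleolar genes passed upward and 2 downward, and 53.7% with quantile normalization. The number of nucleolar genes was 3 without p53- replicate 1 or p53- Rb- replicate 1, and 2 without p53- replicate 3, p53- Rb- replicate 3 or p53- Rb- Myc+ replicate 2. Of all genes 8.84% to 10.2% passed in these fits. Of 17 proliferation genes 2 passed upward, Mki67 at 1.54 ± 0.33 and Bub1 at 1.15 ± 0.26 (adjusted p = 0.00291 and 0.00428), and of 15 mesenchymal and fibroblast markers 1 passed upward and 10 downward. Their part in the result was not tested.

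Neighbouring parts of the RNA machinery were counted beside these genes. Among 83 further ribosome biogenesis genes, 57 rose and 4 fell in p53- Myc+ against p53- arrays, with Nat10, an RNA acetyltransferase, at 1.48 ± 0.15 and Tcof1, a ribosomal DNA transcription cofactor, at 1.44 ± 0.18 (adjusted p = 6.42e-08 and 6.56e-07), and with Riok3 at -0.78 ± 0.17 and Las1l at -0.74 ± 0.17 (adjusted p = 0.000715 and 0.0016). In p53- Rb- Myc+ against p53- Rb- arrays 52 rose and 3 fell, in p53- against WT 36 rose and 2 fell, and in p53- Rb- against p53- 1 rose and 10 fell. The 1 that rose there was Znrd1, at 0.51 ± 0.17 (adjusted p = 0.0392). Nol8 showed the order seen for Esf1, at 1.53 ± 0.22 in p53- against WT, -1.64 ± 0.22 in p53- Rb- against p53- and 1.76 ± 0.22 in p53- Rb- Myc+ against p53- Rb- arrays (adjusted p = 2.88e-05, 2.16e-05 and 8.45e-07). Of 12 genes for the RNA exosome and its companion exonuclease, which degrade processing by-products, 11 rose in each Myc+ comparison and 8 in p53- against WT arrays. Of 12 RNA polymerase II genes, 4 rose in p53- Rb- Myc+ against p53- Rb- arrays and 9 in p53- Myc+ against p53- arrays, and 1 fell in each, the subunit gene Polr2l at -1.08 ± 0.17 and -0.67 ± 0.17 (adjusted p = 1.73e-05 and 0.00309). Of 19 RNA polymerase III genes, 7 rose and 1 fell in p53- Rb- Myc+ against p53- Rb- arrays, and 5 rose and 0 fell in p53- Myc+ against p53- arrays. Among all genes 17.6% rose in the first of these comparisons and 13.1% in the other.

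The genes for the ribosomal proteins themselves stood apart in their counts. Of 53 cytosolic ribosomal protein genes 2 rose and 0 fell in p53- Myc+ against p53-, 6 rose and 1 fell in p53- Rb- Myc+ against p53- Rb-, and 2 rose and 3 fell in p53- against WT arrays. Their median log2 fold changes were 0.10, 0.09 and 0.05 in these comparisons, against 0.84, 0.89 and 0.45 for the nucleolar genes.

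**Figure D5:**
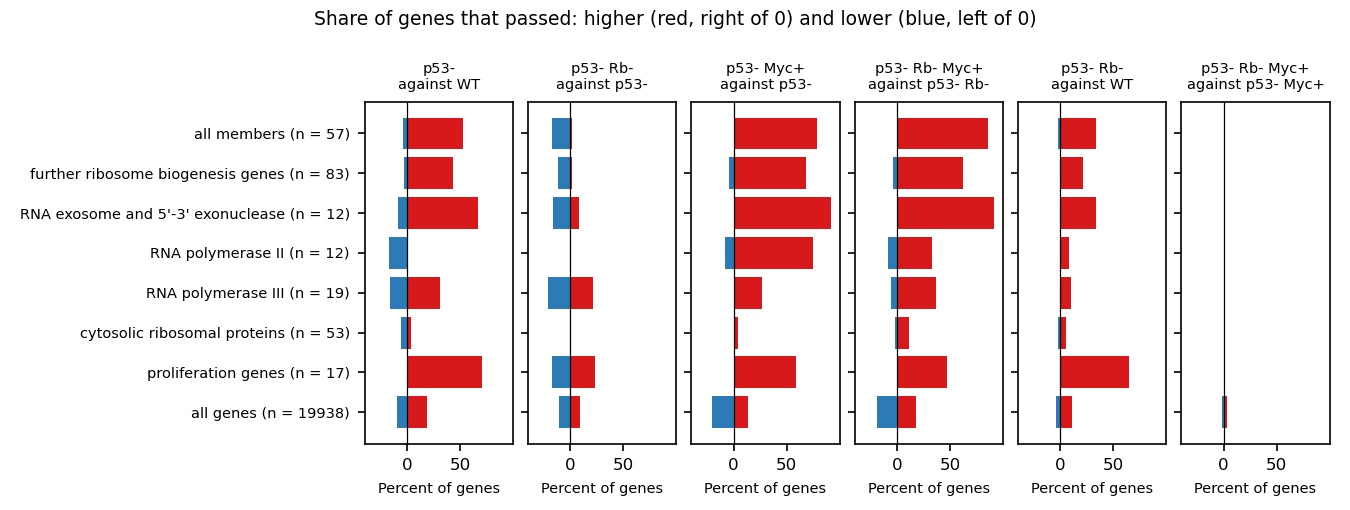
The share of genes that passed in each list and in all genes, in percent, with higher genes drawn right of 0 in red and lower genes left of 0 in blue, for 6 comparisons. The 57 nucleolar genes reach 78.9% and 86% higher in the Myc+ comparisons, against 3.77% and 11.3% for the 53 cytosolic ribosomal protein genes, and 0 in p53- Rb- Myc+ against p53- Myc+.

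Promoter sequence was examined because the genes moved together with the Myc+ label and the known recognition site of MYC is the palindrome CACGTG. RefSeq windows from 250 bases before to 50 after the annotated start were available for 49 of the 57 genes (assembly GRCm38.p6). CACGTG, which reads alike on both strands, was present in 12 of the 49 (24.5%), in 7.15% of all 32851 promoters and in 9.5% of the 15614 array genes with a window. The 12 were Ltv1, Mybbp1a, Nle1, Nop2, Pes1, Pno1, Rpf2, Rrn3, Tsr1, Utp18, Utp20 and Wdr43. Of these, Pno1, Tsr1 and Ltv1 did not pass in p53- Myc+ against p53- arrays, and Polr1b, with the steepest rise there, had no match in its window. The ETS-type motif CCGGAAG, read on both strands, was present in 18 (36.7%), against 8.86% of all promoters and 13.61% of the array genes. The E2F-type motifs TTTGGCGC and TTTCGCGC, also read on both strands, were present in 1 (2.0%, Ncl) and 0, against 0.51% and 0.32% of all promoters and 0.83% and 0.52% of the array genes. No motif contains another, and a match describes letters only. The 80 bases upstream of the start are printed for 3 genes with CACGTG there, in capitals, and for Polr1b, Esf1 and Nop58, without it, which were described above.
Nop2, chr6:125131803-125131882, plus strand: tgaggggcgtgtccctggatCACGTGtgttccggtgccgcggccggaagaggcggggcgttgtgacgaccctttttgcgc
Utp18, chr11:93885767-93885846, minus strand: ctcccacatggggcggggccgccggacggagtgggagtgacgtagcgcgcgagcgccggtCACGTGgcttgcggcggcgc
Rrn3, chr16:13780619-13780698, plus strand: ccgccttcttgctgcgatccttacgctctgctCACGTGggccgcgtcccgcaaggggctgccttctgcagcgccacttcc
Polr1b, chr2:129100916-129100995, plus strand: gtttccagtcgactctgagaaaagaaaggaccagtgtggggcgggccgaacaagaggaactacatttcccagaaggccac
Esf1, chr2:140170559-140170638, minus strand: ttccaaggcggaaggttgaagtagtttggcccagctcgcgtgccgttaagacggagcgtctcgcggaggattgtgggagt
Nop58, chr1:59684926-59685005, plus strand: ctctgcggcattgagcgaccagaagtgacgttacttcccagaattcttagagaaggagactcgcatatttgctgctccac

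A match after the annotated start was found in Ltv1, Mybbp1a, Nle1, Pes1, Pno1, Rpf2, Tsr1, Utp20 and Wdr43. For 3 of these, described above, 30 bases around it are printed from the same assembly.
Nle1, chr11:82908355-82908384, minus strand: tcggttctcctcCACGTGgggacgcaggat
Wdr43, chr17:71616220-71616249, plus strand: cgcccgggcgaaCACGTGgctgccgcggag
Rpf2, chr10:40246990-40247019, minus strand: ggaagtaatcggtaCACGTGcattcgctaa
These letters begin at base 24 in Nle1, 18 in Wdr43 and 35 in Rpf2, counted from 1 at the annotated start; Rpf2 has a second annotated start, from which they lie at -26. In p53- Myc+ against p53- arrays these 3 genes rose by 1.44 (Nle1), 0.68 (Wdr43) and 1.09 (Rpf2) on the log2 scale. Ltv1, Pno1 and Tsr1, also with a match after the start, showed 0.19 to 0.29 and did not pass. Of all 57 nucleolar genes 45 rose in this comparison, and the part of the motif was not tested.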

How the data were processed

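Each of 15 RNA samples was amplified with WT-Ovation Pico and read on its own Affymetrix Mouse Gene array, per the labels' protocols. The authors deposited intensity values per probe set; the submitters' processing notes name Expression Console 1.1. The method of summarising and scaling probes is not given in the sources used here. Values, from 4.11e-05 to 8348.1 with none below 0, were on a linear scale, and the number of arrays limits the precision.

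Of 35556 probe sets, 21789 had 1 gene symbol, 1621 several and 12146 were not listed in the platform annotation. Intensities plus 16 were log2-transformed, and 5 group means were fitted over all 15 arrays with limma 3.58.1 in R 4.3.3 (lmFit, eBayes, 2-sided). The threshold was an adjusted p of 0.05 (Benjamini-Hochberg, all 19938 genes); "rose" and "fell" are used for genes that passed it. The fit was tested on simulated data for p53- against WT with 19938 genes, where 40 of 50 genes changed by 1 on the log2 scale, 7 of 50 changed by 0.5 and 50 of 50 changed by 2 were recovered. Of 50 genes changed by -1, 37 were recovered. Only 50 genes of each size were changed, whereas 29% of all genes passed in the real comparison. The adjustment is stricter with few changed genes, so these shares do not give the sensitivity in the real data.

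The genes and lists were chosen with earlier results of these data known. Values in every array were given for the RNA polymerase I genes, the 4 largest changes in each direction of a comparison among passing genes with arrays that did not overlap, up to 2 against the main direction, the 3 brightest and 3 dimmest, and the 4 largest passing differences of the Rb comparisons; Dkc1, Heatr1, Utp14a and Brix1 fall outside that rule and were named after their values were seen. Promoter motifs were counted with Python 3.11.15; 1 promoter window is not reported here. In p53- Rb- Myc+ against p53- Myc+ same-number arrays deviated together (r = 0.102, 0.192 and 0.379), and pairs of unlike number reached at most 0.064. This was read from the values and not the labels. In p53- Rb- Myc+ against p53- Rb- same-number r was also positive (0.036, 0.056 and 0.218), but a pair of unlike number reached 0.184. In p53- Rb- against p53- same-number r was 0.204, -0.308 and -0.375. There p53- Rb- replicate 3 reached 0.414 with p53- replicate 2, and p53- Rb- replicate 2 reached 0.369 with p53- replicate 3. A block by replicate number does not take up such pairs of unlike number. The main fit did not pair arrays, and the replicate number entered only as a block among the alternatives. The alternatives were other added constants, centring, quantile normalization, bright genes only, the mean of a gene's probe sets, a replicate block, array weights, a variance trend, fewer arrays in the fit and leaving out arrays.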

Additional observations from a re-analysis of the deposited data

Results flagged for a closer look

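The change with loss of Rb differed between cells with and without the Myc+ label, by a test of the difference itself, for 5 of the 57 genes. This was 8.77% of them, all upward, against 8.78% upward and 4.86% downward among all genes (13.6% in either direction). The count was thus no higher than for genes at large. The differences were 2.18 for Esf1, 1.17 for Nop58, 0.85 for Rpf2, 0.84 for Ncl and 0.79 for Npm1 on the log2 scale. In each case the gene was lower in p53- Rb- than in p53- arrays and between -0.07 and 0.17 in p53- Rb- Myc+ against p53- Myc+ arrays. The calls of Rpf2, Ncl and Npm1 were lost in 9, 5 and 6 of 23 alternatives, with adjusted p up to 0.0977, 0.0662 and 0.0813. No cause was tested.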

How the results depend on the processing

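No call of a nucleolar gene changed direction under any alternative tried. Among genes that passed, 23 of 32 in p53- against WT, 4 of 11 in p53- Rb- against p53-, 5 of 20 in p53- Rb- against WT, 41 of 45 in p53- Myc+ against p53- and 44 of 49 in p53- Rb- Myc+ against p53- Rb- passed under all 17 alternatives. With array weights, the number that passed was 22 in p53- Rb- against p53-, 32 in p53- Rb- against WT and 10 in the difference of the Rb comparisons. Of all genes 42.7%, 26.4% and 27.1% passed with these weights, against 19.8%, 14.6% and 13.6% in the main fit. In p53- Rb- against WT the number of nucleolar genes was 12 with quantile normalization (13.6% of all genes) and 9 with only the arrays compared in the fit (10.7%). In p53- Rb- Myc+ against p53- Myc+ it was 1 with 64 added (4.78% of all genes). In the difference it was 9 with 64 added (15% of all genes), and 8 with bright genes only (20.6% of those tested) or with a variance trend (14.3%). Leaving out p53- replicate 2 and p53- Rb- replicate 3 together, an alternative chosen after seeing the data, gave 6 in p53- Rb- against p53- (13.4% of all genes). Leaving out 1 array at a time gave 24 to 34 in p53- against WT, 6 to 12 in p53- Rb- against p53-, 6 to 21 in p53- Rb- against WT, 42 to 46 in p53- Myc+ against p53-, 0 in p53- Rb- Myc+ against p53- Myc+, 46 to 50 in p53- Rb- Myc+ against p53- Rb- and 2 to 7 in the difference; the cause was not tested. With the replicate number as a block, the counts were 32, 11, 17, 45, 0, 49 and 6 in that order, so pairing moved none by over 1.5 times. Same-number correlations ran from -0.375 to 0.218 in the comparisons other than p53- Rb- Myc+ against p53- Myc+.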

Other observations

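Of 19 RNA polymerase III genes, Gtf3a, a factor for transcription of the smallest ribosomal RNA, rose by 1.58 ± 0.16 in p53- Myc+ against p53- arrays (adjusted p = 4.8e-08), with mean intensities of 981.9 in p53- Myc+ and 318 in p53- arrays. Bdp1, an initiation factor of the same polymerase, followed the order of Esf1, at 1.22 ± 0.20 in p53- against WT, -1.28 ± 0.20 in p53- Rb- against p53- and 1.43 ± 0.20 in p53- Rb- Myc+ against p53- Rb- arrays (adjusted p = 0.000137, 0.000127 and 5.06e-06). Maf1, the repressor of RNA polymerase III, fell in p53- against WT arrays, at -0.87 ± 0.18 (adjusted p = 0.000862), with mean intensities of 137.2 in p53- and 262.3 in WT arrays.

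The exosome subunit genes did not all move alike after loss of p53. Exosc9 rose by 1.23 ± 0.18 and Exosc4 fell, at -0.52 ± 0.18, in p53- against WT arrays (adjusted p = 4.55e-05 and 0.0351), while in p53- Rb- against p53- arrays Exosc9 fell, at -0.63 ± 0.18, and Exosc4 rose by 0.58 ± 0.18 (adjusted p = 0.018 and 0.0277). Both comparisons use the p53- arrays.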
